A study of Homo sapiens with 34 samples.

Results

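The mitosis and spindle genes described here are 44 genes of mitotic cyclins and kinases, the spindle checkpoint, kinesin motors, the kinetochore, the spindle, cytokinesis, mitotic chromosomes and the transcription factors that drive these genes, chosen as the rows of the count table that carry the listed symbols. All 44 of 44 listed genes were found among the 26336 genes of the table, 1 of them, SGO1, under its older symbol SGOL1. They lie on 18 chromosomes (GENCODE v29), with the most, 6, on chromosome 1. KIF4A and PTTG1 have near-identical copies elsewhere in the genome, KIF4B and PTTG2, so that their counts are uncertain where reads could be split. Each passed the filter on low counts in every comparison. RNA was sequenced from 34 libraries in 17 groups of human prostate cell lines. RWPE cells are a non-tumorigenic prostate epithelial line, LNCaP cells are a prostate adenocarcinoma line, and VCaP and MDAPCa2a cells were derived from bone metastases. The growth surface was either plastic or a coating of amorphous calcium phosphate (ACP), a mineral found in forming bone.

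RWPE cells were sampled on plastic in control medium, on ACP in control medium and on ACP with androgen. LNCaP and VCaP cells were each sampled on plastic and on ACP in control medium, on plastic and on ACP in serum stripped of steroids with charcoal and dextran, and on ACP in stripped serum with androgen. MDAPCa2a cells were sampled on plastic in control medium, on plastic and on ACP in stripped serum, and on ACP in stripped serum with androgen. Each group had 2 libraries, except RWPE with androgen on ACP, which had 3, and VCaP in stripped serum on plastic, which had 1. The labels give the androgen as 100 mM and name it as DHT in some fields and as testosterone in others, so it is called androgen throughout. Whether the RWPE androgen medium held stripped serum is not stated. Each line is 1 established cell line in culture, and RWPE cells grew in a serum-free keratinocyte medium, so its differences from the other lines include the medium. MDAPCa2a cells on plastic grew on an additional FNC coating that the ACP cultures lacked, so that coating and surface changed together. Cells of the plastic control groups came from continuous culture, per the labels, while day 4 is given for the rest.

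Cells entering mitosis switch on a shared set of genes. Cyclin B and CDK1 form the kinase that starts mitosis, PLK1 and the Aurora kinases build the spindle, and the checkpoint proteins BUB1, BUB1B, TTK and MAD2L1 hold back the anaphase-promoting complex until every kinetochore is attached. Then CDC20 and UBE2C direct this complex to destroy cyclin B and securin, and the daughter cells separate. The transcripts of these genes rise in G2 and mitosis, driven by FOXM1 and MYBL2 together with the MuvB complex, and are low in cells that have stopped dividing. In prostate cancer lines growth and androgen are coupled, with both stimulation and inhibition known depending on line and dose. In bulk RNA, fewer dividing cells and less RNA of these genes per dividing cell cannot be told apart.

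Promoters of such genes often carry a cell cycle gene homology region, TTTGAA, bound by the MuvB complex, and CCAAT boxes, bound by NF-Y. Of the 44 genes, 38 have an entry in RefSeq's promoter table for build GRCh38.p14, whose windows hold 250 bases before and 50 bases after the start. A gene with several windows was counted if any of them matched. TTTGAA occurred on either strand for 27 of the 38 genes (71.1%) and for 18.1% of the 27267 other genes. CCAAT on either strand occurred for 31 genes (81.6%), against 39.7% of the others. Both were present in the same window for 23 genes (60.5%), against 7.19% of the others, and CDK1, PLK1 and TOP2A were among those with both. The windows of KIF2C, CENPE and MYBL2 held neither. A match is a description of the letters and does not show that a factor binds. The 120 bases just before the start are printed for genes with a single window, both motifs in that stretch and no annotated exon in it (GENCODE v29). Genes with several windows were not considered for printing. Matches to TTTGAA or its complement TTCAAA and to CCAAT or its complement ATTGG are in capitals. The printed stretches belong to the proliferation marker MKI67 on the minus strand (chr10:128126424-128126543), the spindle motor KIF11 on the plus strand (chr10:92593010-92593129) and the abscission protein CEP55 on the plus strand (chr10:93496492-93496611).
MKI67: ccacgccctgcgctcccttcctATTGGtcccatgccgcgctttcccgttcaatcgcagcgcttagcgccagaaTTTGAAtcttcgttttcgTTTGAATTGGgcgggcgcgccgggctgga
KIF11: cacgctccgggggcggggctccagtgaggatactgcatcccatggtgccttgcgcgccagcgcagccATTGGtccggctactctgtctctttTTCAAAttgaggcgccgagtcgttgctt
CEP55: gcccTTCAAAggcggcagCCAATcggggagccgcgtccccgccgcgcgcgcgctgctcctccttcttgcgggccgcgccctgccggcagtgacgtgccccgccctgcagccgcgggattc
In the MKI67 stretch, which holds 2 matches to each motif, the last TTTGAA overlaps an ATTGG by shared letters.

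Library totals ranged from 15440141 to 44779246 counts. Levels are given as CPM, a gene's counts relative to the library total after scaling with the trimmed mean of M-values over all 34 libraries. Differences were tested with edgeR's quasi-likelihood test, p-values were adjusted over all genes tested by the Benjamini-Hochberg method, and a gene was called at an adjusted p below 0.05. The error given with a log2 fold change is its standard error (SE). Shares called over all genes are given for these main fits only, not for other settings or fits without 1 library. The labels do not say whether the libraries of a group came from separate cultures, so the p-values measure only the spread between these libraries. In RWPE, LNCaP and MDAPCa2a the plastic control libraries stood apart: the summed level of 5 liver genes was 11.4 to 16.9 CPM in LNCaP plastic control libraries and 0.587 to 1.65 CPM in the other LNCaP libraries, and 5 leukocyte genes summed to 10.4 to 10.8 CPM against 0 to 1.58 CPM. In RWPE the liver sum was 13.1 to 13.9 CPM on plastic and 0 to 0.536 CPM on ACP. In MDAPCa2a it was 6.65 to 11.7 CPM in the plastic control libraries and 0 to 0.628 CPM in the others. The VCaP liver sums did not show this, at 64.4 to 144 CPM in the plastic control libraries. They were 132 to 320 CPM in control medium and stripped serum on ACP, and 15.5 to 65 CPM with androgen. ALB made up most of the VCaP sum, with means of 92.2 CPM in the plastic control libraries and 292 CPM in stripped serum on ACP. Such a sum can hide differences in the lower genes. The liver gene APOA1 did differ, with a mean of 5.41 CPM in the VCaP plastic control libraries. It was at 0.109 CPM in VCaP on ACP in control medium and 0.0944 CPM in the stripped library on plastic. The liver genes other than ALB and APOA1 are not given singly for VCaP. Where plastic control libraries are compared with another group of RWPE, LNCaP or MDAPCa2a, this difference, the culture label and the compared condition cannot be told apart. In VCaP the same holds for the culture label and the liver gene difference, which is shown here for APOA1 only. The comparisons between lines use plastic control libraries on both sides.

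The summed level of the 44 genes was 4545 to 7014 CPM over the 7 RWPE libraries and 257 to 1646 CPM over the 8 MDAPCa2a libraries. LNCaP libraries lay between 479 and 3722 CPM and VCaP libraries between 1159 and 6710 CPM. The lines were sampled in different media. On plastic in control medium, which all lines share, the sums were 4626 and 4545 CPM in RWPE, 3905 and 6294 CPM in VCaP, 1892 and 2142 CPM in LNCaP and 826.2 and 1646 CPM in MDAPCa2a, so that RWPE lay within the range of VCaP and above the other two lines. RWPE libraries of a group lay close together, whereas VCaP and LNCaP levels differed between media. MDAPCa2a levels were below those of every RWPE library in every medium.

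**Figure D1:**
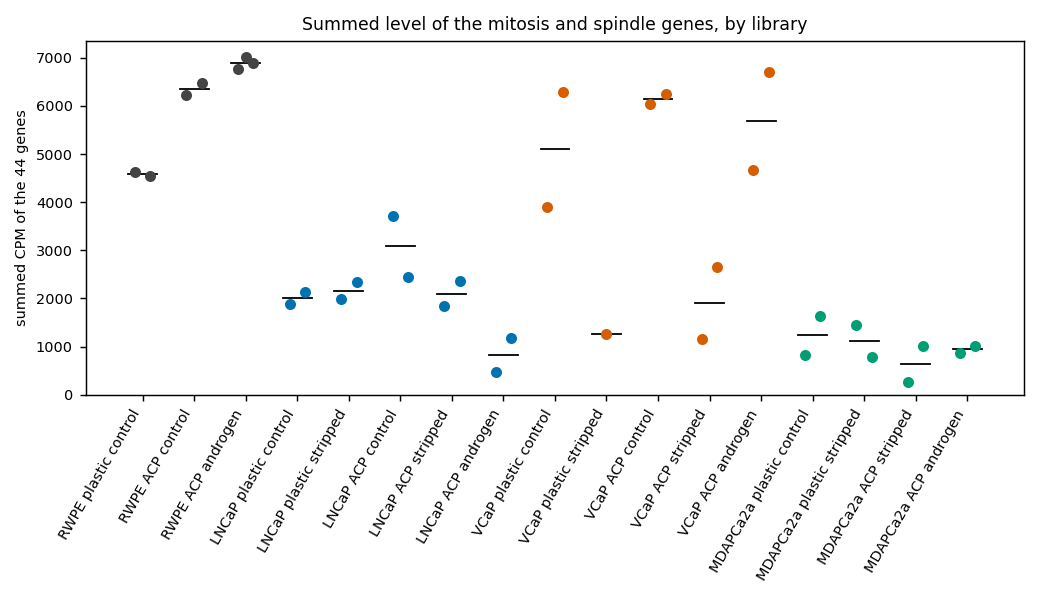
Summed level of the 44 genes in CPM (vertical axis, from 0) for each library, by group (horizontal axis). Points are libraries and black lines are group means. LNCaP with androgen on ACP (478.6 and 1175 CPM) lies below LNCaP in stripped serum on ACP (1836 and 2371 CPM), while VCaP with androgen (4665 and 6710 CPM) lies above VCaP in stripped serum (1159 and 2656 CPM).

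Within several groups the 44 genes moved together from one library to the other. All 44 were higher in replicate 2 than in replicate 1 in LNCaP with androgen on ACP, with a median ratio of 2.58-fold. The same held for all 44 in VCaP in stripped serum on ACP (2.32-fold), VCaP with androgen on ACP (1.46-fold), MDAPCa2a on plastic in control medium (1.97-fold) and MDAPCa2a in stripped serum on ACP (4.74-fold). In LNCaP on ACP in control medium all 44 were higher in replicate 1 (1.51-fold). The median log2 ratio of all 15052 genes compared this way stayed between -0.06 and 0.13 over the groups with a pair of libraries. The genes therefore do not give 44 separate readings of a condition, and library spread is given beside each result.

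**Figure D2:**
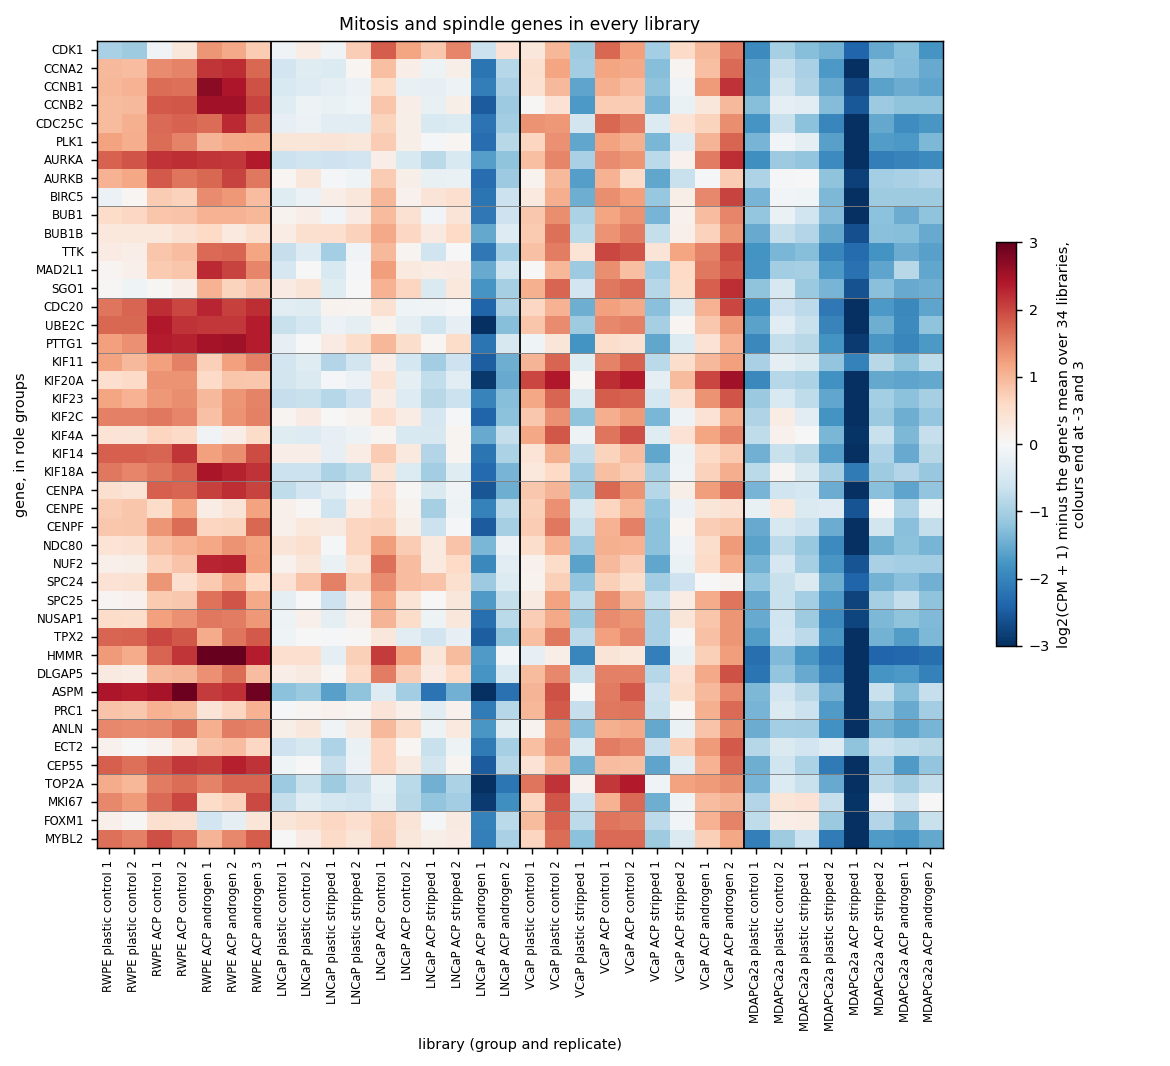
Level of each of the 44 genes (rows, in role groups separated by grey lines) in each of the 34 libraries (columns, lines separated by black lines). Colour is log2(CPM + 1) minus the gene's mean over the 34 libraries. The columns of LNCaP with androgen, replicate 1, and MDAPCa2a in stripped serum on ACP, replicate 1, are low in nearly the whole set, and ASPM is higher in each RWPE library than in each library of the other lines.

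On plastic in control medium, most of the genes were lower in MDAPCa2a than in RWPE, fewer were lower in LNCaP, and in VCaP some were higher and a few lower. The basal markers of RWPE set it apart as labelled: TP63 was at 88.5 to 222 CPM in RWPE and at or below 0.46 CPM in every other library, and ERG at 124 to 873 CPM in VCaP and at or below 2.32 CPM in the other lines. These fits used all 34 libraries. In LNCaP 1 gene was higher and 21 were lower than in RWPE, with a median log2 fold change of -0.97 over the 44 genes and 0.01 over all genes, where 57.4% of all genes were called, 29.5% higher and 27.9% lower. In MDAPCa2a none was higher and 36 were lower, with a median of -1.75, where 56.7% of all genes were called, 28.3% higher and 28.4% lower. In VCaP 8 were higher and 3 lower, with a median of 0.32, where 62.4% of all genes were called, 32.1% higher and 30.3% lower. The share called among the 44 genes was thus below the share over all genes in LNCaP and VCaP and above it in MDAPCa2a. Leaving out 1 library at a time gave 11 to 17 calls in LNCaP, 4 to 8 in VCaP and 19 to 37 in MDAPCa2a. The lowest MDAPCa2a count came without its plastic control replicate 1, and the lowest LNCaP counts without either of its libraries. The VCaP count was 4 without either RWPE library and without VCaP replicate 2, where the median was -0.07.

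CDK1, the mitotic kinase, did not follow the other cyclin and kinase genes. Its level on plastic in control medium was 39.3 and 36.8 CPM in RWPE, 71.6 and 91.2 CPM in LNCaP, 98.6 and 155 CPM in VCaP, and 19.9 and 38.3 CPM in MDAPCa2a. The LNCaP and VCaP libraries were all above the RWPE libraries, an order that is common with 2 libraries per group, and 1 MDAPCa2a library overlapped them. CDK1 was higher than in RWPE by 1.12 ± 0.44 (log2, SE) in LNCaP (edgeR adjusted p = 0.0339) and by 1.76 ± 0.45 in VCaP (adjusted p = 0.00155), and differed by -0.38 ± 0.44 in MDAPCa2a (adjusted p = 0.486).

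CCNB1, its cyclin partner, was at 264 and 275 CPM in RWPE, 96.1 and 101 CPM in LNCaP, 182 and 261 CPM in VCaP and 43.0 and 89.7 CPM in MDAPCa2a. RWPE was thus the highest line for CCNB1 and low for CDK1, and the LNCaP difference for CCNB1 was -1.43 ± 0.42 (adjusted p = 0.00485). AURKA, the spindle pole kinase, was the kinase gene with the lowest level relative to RWPE in both LNCaP (-2.48 ± 0.35, adjusted p = 1.47e-06) and MDAPCa2a (-3.30 ± 0.36, adjusted p = 2.89e-08). Its levels were 200 and 218 CPM in RWPE, 36.4 and 37.7 CPM in LNCaP and 15.5 and 26.8 CPM in MDAPCa2a.

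ASPM, the spindle pole protein whose loss causes small brain size, gave the lowest fold of all 44 genes in both of these lines. It was at 167 and 162 CPM in RWPE, 12.3 and 13.5 CPM in LNCaP and 11.2 and 19.9 CPM in MDAPCa2a. It was lower than in RWPE by log2 values of -3.65 ± 0.62 in LNCaP (adjusted p = 1.81e-05) and -3.39 ± 0.61 in MDAPCa2a (adjusted p = 4.09e-05). The same gene was at 61.7 and 116 CPM in VCaP.

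Among the genes that end the checkpoint, UBE2C, the ubiquitin-conjugating enzyme of the anaphase-promoting complex, was lower in LNCaP by a log2 value of -2.35 ± 0.58 (adjusted p = 0.00128), and CDC20, its activator, was lower in MDAPCa2a by -2.81 ± 0.54 (adjusted p = 8.85e-05). Of the kinesins, KIF18A, a motor that dampens chromosome movements, was at -2.31 ± 0.42 in LNCaP (adjusted p = 4.38e-05) and KIF14, which acts in cytokinesis, at -2.90 ± 0.63 in MDAPCa2a (adjusted p = 0.000345). The cytokinesis gene CEP55 was lower in both, at -1.79 ± 0.59 in LNCaP (adjusted p = 0.012) and -2.76 ± 0.61 in MDAPCa2a (adjusted p = 0.000464). TOP2A, the enzyme that untangles sister chromatids, was at -1.90 ± 0.54 in LNCaP (adjusted p = 0.00409) and -1.87 ± 0.54 in MDAPCa2a (adjusted p = 0.00476). The centromere histone CENPA was at -1.18 ± 0.46 in LNCaP (adjusted p = 0.0309), and the kinetochore protein CENPF at -1.75 ± 0.64 in MDAPCa2a (adjusted p = 0.0219). The transcription factor MYBL2 was at -1.47 ± 0.57 in LNCaP (adjusted p = 0.0303) and -3.10 ± 0.60 in MDAPCa2a (adjusted p = 0.000109). Of the 5 checkpoint and cohesin protection genes none was called in LNCaP, where TTK, a checkpoint kinase, had the largest difference at -0.76 ± 0.39 (adjusted p = 0.0963), while 4 of 5 were lower in MDAPCa2a, TTK by -1.91 ± 0.41 (adjusted p = 0.00027).

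In VCaP the genes above RWPE included SGO1, which protects centromeric cohesin (1.61 ± 0.45, adjusted p = 0.00328), KIF20A, a motor of the central spindle (1.71 ± 0.48, adjusted p = 0.00358), ECT2, which positions the cleavage furrow (1.14 ± 0.36, adjusted p = 0.00863), and FOXM1 (1.36 ± 0.53, adjusted p = 0.0287). PTTG1, the securin, was lower (-1.17 ± 0.46, adjusted p = 0.0312), as was HMMR, a spindle assembly factor (-1.21 ± 0.51, adjusted p = 0.0412). The HMMR call was lost with DESeq2 (adjusted p = 0.0535). Of the kinetochore genes none was called in VCaP, where SPC25 had the largest difference, 0.77 ± 0.49 (adjusted p = 0.178). Levels compared between genes per kilobase of exon (GENCODE v29) had TPX2, UBE2C and CCNB1 as the highest 3 in RWPE, at 108, 107 and 106 CPM per kilobase. CCNB1 was highest in LNCaP (38.6) and MDAPCa2a (25.9), and TOP2A was highest in VCaP, at 100 CPM per kilobase, above CCNB1 at 86.4.

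Growth on ACP rather than plastic in control medium went with higher levels of 6 of the 44 genes in RWPE, and in LNCaP the share of the 44 called was below that over all genes. In RWPE 6 of the 44 were higher and none lower, where 4.16% of all genes were called, 2.83% higher and 1.33% lower, and the median of the 44 was 0.54. In LNCaP 2 were higher and none lower, where 12.6% of all genes were called, 6.74% higher and 5.85% lower, and the median was 0.68. In VCaP edgeR called none, with 1 at an unadjusted p under 0.05 and none by DESeq2, where 0.0448% of all genes were called, 0.0256% higher and 0.0192% lower, and the median was 0.34. No gene of the 44 had a negative log2 fold change in RWPE or LNCaP and 1 had in VCaP. CDK1 was 39.3 and 36.8 CPM on plastic and 72.5 and 98.6 CPM on ACP in RWPE, and 71.6 and 91.2 CPM on plastic and 275 and 179 CPM on ACP in LNCaP. Its log2 fold changes were 1.21 ± 0.24 in RWPE (adjusted p = 0.0253), 1.58 ± 0.40 in LNCaP (adjusted p = 0.0281) and 0.87 ± 0.45 in VCaP (adjusted p = 0.688).

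In RWPE, CENPA was at 20.6 and 19.6 CPM on plastic and 52.3 and 50.8 CPM on ACP, a change of 1.39 ± 0.17 (adjusted p = 0.0045). PTTG1 rose by 1.07 ± 0.18 (adjusted p = 0.0141) and KIF20A by 0.84 ± 0.17 (adjusted p = 0.0267). The other called genes, named after their values were seen, were cyclin B2 (CCNB2, 0.93) and the spindle protein NUSAP1 (0.81). MKI67 was at 295 and 262 CPM on plastic and 354 and 434 CPM on ACP, a difference of 0.54 ± 0.40 (adjusted p = 0.44). In LNCaP the other called gene was the checkpoint protein MAD2L1 (1.20), also named after its value was seen, while HMMR (1.33 ± 0.49, adjusted p = 0.0948) and CCNB1 (0.74 ± 0.32, adjusted p = 0.137) were not called. LNCaP MKI67 was at 65.5 and 84.0 CPM on plastic and 89.9 and 59.6 CPM on ACP, so that its groups overlapped. Without 1 library the RWPE count was 0 to 1. The LNCaP count was 0 without either plastic library or ACP replicate 1, and 10 without ACP replicate 2. Both counts were 0 in the fit of all lines. In RWPE and LNCaP the surface, day 4 against continuous culture and the liver and leukocyte genes of the plastic control libraries change together here and cannot be told apart. In VCaP the surface, the culture label and the liver gene APOA1 change together as well.

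In stripped serum, where both surfaces were sampled at day 4, the surface changed none of the 44 genes past the threshold in LNCaP, VCaP or MDAPCa2a. In LNCaP edgeR and DESeq2 called none and none had an unadjusted p under 0.05, where 6.12% of all genes were called, 4.32% higher and 1.8% lower. The median was -0.02, and the widest values were CDK1 at 0.81 ± 0.39 (adjusted p = 0.221) and CENPF at -0.76 ± 0.40 (adjusted p = 0.253). In VCaP, with 1 plastic library, neither tool called any, 1 had an unadjusted p under 0.05, and 0% of all genes were called. The VCaP median was 0.63, and 0.00 without ACP stripped replicate 2. In MDAPCa2a neither tool called any, 2 had an unadjusted p under 0.05, and 0.00734% of all genes were called. All 44 values were negative there, with a median of -0.73, of which PLK1 was lowest at -1.54 ± 0.68 (adjusted p = 0.329), followed by the kinetochore protein SPC24 at -1.53 ± 0.68 (adjusted p = 0.334). Those MDAPCa2a values rested on 1 library: without ACP stripped replicate 1 the median was -0.11, and without replicate 2 it was -2.27 with 12 genes called. The LNCaP difference between the surface effects in stripped and control medium had a median of -0.74, the largest being CENPA at -1.19 ± 0.51 (adjusted p = 0.544). No gene was called by edgeR or DESeq2, 2 had an unadjusted p under 0.05, and 0.307% of all genes were called.

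Stripped serum went with lower levels of 10 of the mitosis and spindle genes in VCaP on ACP, and edgeR called none of them for it in LNCaP or MDAPCa2a. Whether the effect of stripping differed between the lines was not tested. On ACP, 10 of the 44 were lower in VCaP and none higher, where 0.82% of all genes were called, 0.685% lower, and all 44 values were negative with a median of -1.66. The stripped group of VCaP on plastic is 1 library, so its errors and p-values take the spread from the other VCaP groups and hold no replicate check of that library. There 2 genes passed the threshold, lower, where 0.89% of all genes were called, 0.416% lower, with a median of -2.00. In LNCaP on plastic neither edgeR nor DESeq2 called any, none had an unadjusted p under 0.05, 9.45% of all genes were called, 4.61% higher and 4.84% lower, and the median was 0.07. In LNCaP on ACP edgeR called none and DESeq2 2, 6 had an unadjusted p under 0.05, 5.37% of all genes were called, 3.28% higher and 2.09% lower, and the median was -0.65, with ASPM lowest at -1.20 ± 0.41 (adjusted p = 0.117). In MDAPCa2a on plastic neither tool called any, none had an unadjusted p under 0.05, 1.58% of all genes were called, 0.881% higher and 0.697% lower, and the median was -0.16. The VCaP comparisons on plastic and ACP have no library in common. On ACP the VCaP liver sum was 132 to 237 CPM in control medium and 264 to 320 CPM in stripped serum, and the fibroblast sum 36 to 42.9 CPM and 39.9 to 160 CPM. Their part in the result was not tested.

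In VCaP on ACP, FOXM1 was at 263 and 254 CPM in control medium and 49.1 and 81.4 CPM in stripped serum, a change of -1.97 ± 0.32 (adjusted p = 0.0345). MYBL2 was at 239 and 238 CPM and 34.2 and 52.9 CPM, the largest change of the 44 genes at -2.44 ± 0.35 (adjusted p = 0.0299). Both transcription factors were thus lower in each stripped library than in each control library, an order that is common with 2 libraries per group. PLK1 fell from 139 and 126 CPM to 22.7 and 45.3 CPM (-1.95 ± 0.37, adjusted p = 0.0461), and CDC20 from 137 and 127 CPM to 23.6 and 43.3 CPM (-1.97 ± 0.36, adjusted p = 0.0411). CENPA (-1.88 ± 0.35, adjusted p = 0.0431) and PRC1, which bundles the central spindle (-1.85 ± 0.34, adjusted p = 0.0417), were also called. The other 4 called genes, named after their values were seen, were UBE2C (-1.87), the central spindle motors KIF23 (-1.77) and KIF4A (-1.70), and the spindle assembly factor TPX2 (-1.77).

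MKI67, at 222 and 353 CPM in control medium and 38.4 and 98.8 CPM in stripped serum, changed by -2.05 ± 0.47 without passing the threshold (adjusted p = 0.0711). Its groups did not overlap, which is common over all genes with 2 libraries per group, and its fold was larger than that of 9 of the 10 called genes. TTK had the smallest difference, -1.10 ± 0.31 (adjusted p = 0.115). DESeq2 called 42 of the 44, and its share over all genes is not given. The count was 0 without either control library or without stripped replicate 1, and 40 without stripped replicate 2. On plastic, against the single stripped library, the genes past the threshold were PLK1, at 93.7 and 157 CPM in control medium and 19.7 CPM in stripped serum (-2.60 ± 0.50, adjusted p = 0.0491), and MYBL2, at 114 and 235 CPM and 30.2 CPM (-2.46 ± 0.46, adjusted p = 0.0476). DESeq2 called 43 there, and edgeR neither of these with DESeq2's size factors (adjusted p = 0.0526 for PLK1 and 0.0502 for MYBL2).

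Androgen added to stripped serum on ACP moved the genes in opposite directions in LNCaP and VCaP. In LNCaP 21 of the 44 were lower and none higher, where 7.73% of all genes were called, 3.77% higher and 3.96% lower. All 44 values were negative, from -1.94 to -0.83, with a median of -1.42. In VCaP 35 of the 44 were higher and none lower, where 17.5% of all genes were called, 8.67% higher and 8.8% lower. All 44 values were positive, from 0.64 to 2.40, with a median of 1.63. In both lines the stripped libraries on ACP also serve in the comparison of stripped serum with control medium on ACP. Known androgen-induced genes rose in both lines: KLK3, which encodes prostate-specific antigen, by 1.01 ± 0.18 in LNCaP (adjusted p = 0.00722) and 4.77 ± 0.74 in VCaP (adjusted p = 0.00384), and the protease gene TMPRSS2 by 2.27 ± 0.24 (adjusted p = 0.000466) and 2.91 ± 0.37 (adjusted p = 0.00171).

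**Figure D3:**
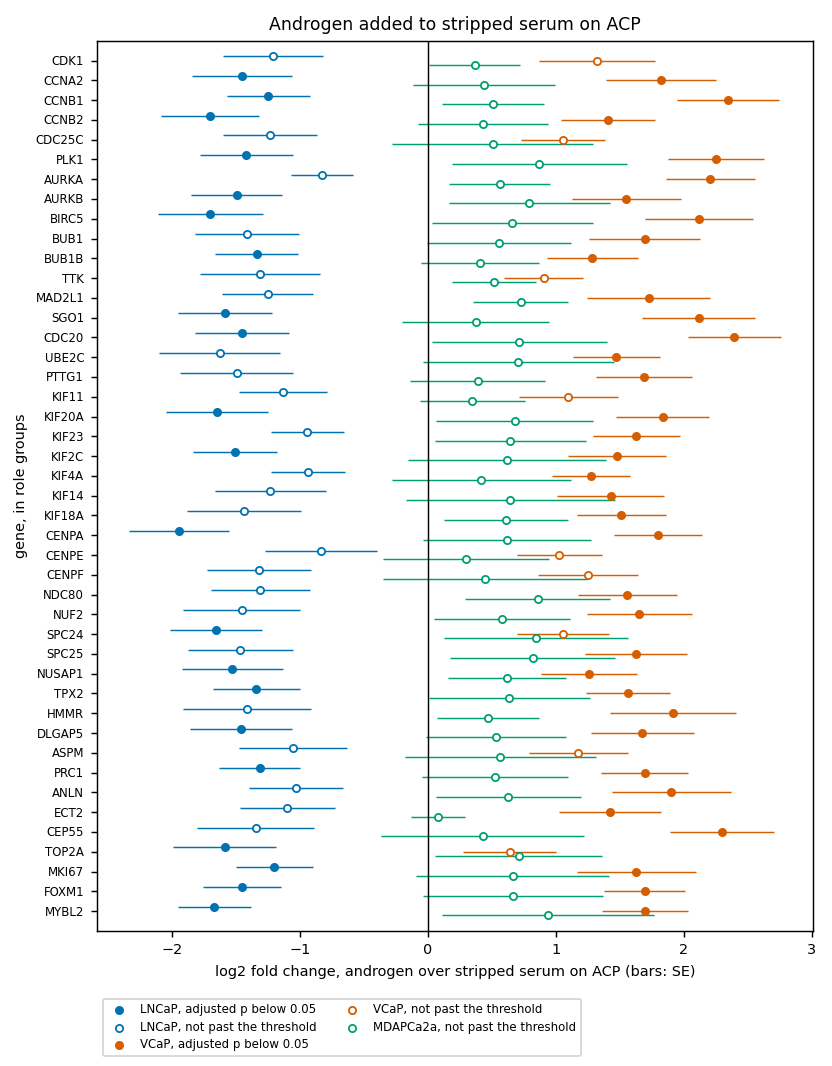
Log2 fold change of each of the 44 genes (rows) for androgen added to stripped serum on ACP, with bars of 1 SE, in LNCaP, VCaP and MDAPCa2a. Filled points passed an edgeR adjusted p of 0.05. The LNCaP points all lie left of 0 and the VCaP points all lie right of 0, and no MDAPCa2a point is filled.

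Among the LNCaP cyclin and kinase genes 6 of 9 fell. CCNB1 was at 112 and 119 CPM in stripped serum and 30.7 and 67.6 CPM with androgen, a change of -1.25 ± 0.32 (adjusted p = 0.0384). PLK1 went from 57.3 and 62.3 CPM to 11.6 and 33.4 CPM (-1.42 ± 0.36, adjusted p = 0.0372), and AURKB, the kinase of the chromosomal passenger complex, from 17.5 and 18 CPM to 3.49 and 9.19 CPM (-1.49 ± 0.36, adjusted p = 0.0293). The largest change of the 9 was in cyclin B2 (CCNB2, -1.70 ± 0.38, adjusted p = 0.0234), and the smallest in AURKA, which was not called (-0.83 ± 0.24, adjusted p = 0.0614). CDK1, at 138 and 216 CPM against 49.5 and 105 CPM, missed the threshold (-1.21 ± 0.39, adjusted p = 0.0844). Its groups did not overlap, an order that is common with 2 libraries per group.

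Of the 5 LNCaP checkpoint and cohesin protection genes 2 fell, with SGO1 lowest at -1.59 ± 0.37 (adjusted p = 0.027), and MAD2L1 changed least, at -1.25 ± 0.36 (adjusted p = 0.0543). Of the 3 partners of the anaphase-promoting complex 1 fell, and UBE2C, with the largest difference of -1.63 ± 0.47, was not called (adjusted p = 0.0582). Of 7 kinesins 2 fell, KIF20A most, at -1.65 ± 0.40 (adjusted p = 0.0298), while KIF4A had the smallest value, -0.94 ± 0.29 (adjusted p = 0.0731). Of 7 kinetochore genes 2 fell. CENPA, at 10.4 and 13.5 CPM in stripped serum and 1.62 and 4.61 CPM with androgen, had the largest change of all 44 genes in this comparison (-1.94 ± 0.39, adjusted p = 0.0143). CENPE, the motor that moves chromosomes to the spindle equator, had the smallest of its group (-0.83 ± 0.43, adjusted p = 0.273), and its libraries overlapped. Of 6 spindle genes 4 fell, NUSAP1 most (-1.53 ± 0.39, adjusted p = 0.0384) and ASPM least, without being called (-1.05 ± 0.42, adjusted p = 0.154). None of the 3 cytokinesis genes was called, CEP55 having the largest difference (-1.35 ± 0.46, adjusted p = 0.0989).

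Both chromosome structure genes and both transcription factors fell in LNCaP. TOP2A went from 62.1 and 88.2 CPM to 13.4 and 37.1 CPM (-1.59 ± 0.40, adjusted p = 0.0349), and MKI67 from 47.1 and 51.7 CPM to 13.9 and 29.3 CPM (-1.20 ± 0.30, adjusted p = 0.0341). FOXM1 went from 82.8 and 105 CPM to 20.4 and 48.5 CPM (-1.45 ± 0.31, adjusted p = 0.0181), and MYBL2 from 82.1 and 85.9 CPM to 16.8 and 36.3 CPM (-1.67 ± 0.29, adjusted p = 0.00682). In each of these 4 genes both androgen libraries were below both stripped libraries, replicate 1 lowest. Over all genes tested, 28.7% had groups without overlap in that direction. The number of calls rested on single libraries: 44 genes were called without androgen replicate 2, and 2 without androgen replicate 1. The count was 2 without stripped replicate 1 and 1 without stripped replicate 2, and the fit of all lines called 3. The 44 values stayed negative each time, with medians from -2.19 to -0.85. The fibroblast genes summed to 17.5 to 19.2 CPM in stripped serum and 16.3 to 16.5 CPM with androgen, the leukocyte genes stayed at or below 0.932 CPM and the liver genes at or below 1.65 CPM.

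In VCaP 7 of 9 cyclin and kinase genes rose with androgen. CCNB1 went from 56.7 and 124 CPM in stripped serum to 321 and 599 CPM, the largest change of the 9 (2.35 ± 0.40, adjusted p = 0.00555). PLK1 went from 22.7 and 45.3 CPM to 122 and 202 CPM (2.25 ± 0.37, adjusted p = 0.00504), and AURKB from 6.35 and 12.6 CPM to 19.7 and 35.9 CPM (1.55 ± 0.43, adjusted p = 0.0341). CDK1, at 38.1 and 116 CPM against 153 and 233 CPM, was not called (1.32 ± 0.46, adjusted p = 0.0705). Its groups did not overlap, which is common over all genes with 2 libraries per group. The phosphatase CDC25C, which activates CDK1, had the smallest difference (1.06 ± 0.33, adjusted p = 0.0504).

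All 3 partners of the anaphase-promoting complex and all 3 cytokinesis genes rose in VCaP. CDC20, from 23.6 and 43.3 CPM to 119 and 233 CPM, had the largest change of all 44 genes (2.40 ± 0.36, adjusted p = 0.00367), and CEP55 went from 8.95 and 22.6 CPM to 60.1 and 95.5 CPM (2.30 ± 0.40, adjusted p = 0.00622). Of the 5 checkpoint and cohesin protection genes 4 rose, SGO1 most (2.12 ± 0.44, adjusted p = 0.0121), and TTK, at 0.91 ± 0.31, did not pass (adjusted p = 0.0673). Of 7 kinesins 6 rose, KIF20A most (1.83 ± 0.36, adjusted p = 0.00983), and KIF11 was the one not called (1.10 ± 0.39, adjusted p = 0.0754). Of 7 kinetochore genes 4 rose, CENPA most (1.80 ± 0.35, adjusted p = 0.00899), with CENPE lowest and not called (1.03 ± 0.33, adjusted p = 0.0585). Of 6 spindle genes 5 rose, HMMR most (1.92 ± 0.49, adjusted p = 0.0268), and ASPM was not called (1.18 ± 0.39, adjusted p = 0.0618).

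FOXM1 rose in VCaP from 49.1 and 81.4 CPM to 178 and 244 CPM (1.69 ± 0.32, adjusted p = 0.00829), and MYBL2 from 34.2 and 52.9 CPM to 119 and 163 CPM (1.70 ± 0.34, adjusted p = 0.0102). MKI67 rose from 38.4 and 98.8 CPM to 206 and 218 CPM (1.63 ± 0.47, adjusted p = 0.0391). TOP2A had the smallest difference of all 44 genes, from 157 and 396 CPM to 412 and 448 CPM (0.64 ± 0.37, adjusted p = 0.243). All 44 values stayed positive when 1 library was left out, with medians from 1.16 to 2.26. The number called was 10 without stripped replicate 1, 43 without stripped replicate 2, 30 without androgen replicate 1 and 5 without androgen replicate 2. Markers listed for other tissues also differed between these VCaP groups. The 5 liver genes summed to 264 to 320 CPM in stripped serum and 15.5 to 65 CPM with androgen, the 5 fibroblast genes to 39.9 to 160 and 7.28 to 8.36 CPM, and the 5 leukocyte genes to 7.13 to 13.4 and 81.9 to 158 CPM. The liver sum was mostly ALB, at means of 292 CPM in stripped serum and 39.8 CPM with androgen. The leukocyte sum was mostly LYZ, at means of 9.27 CPM in stripped serum and 117 CPM with androgen. The fibroblast sum was mostly LUM, at 36.2 and 152 CPM in stripped serum, with COL1A2 at 0 there and at 3 counts in each androgen library. The part of these markers in the VCaP result was not tested.

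The difference between the lines was tested directly as the VCaP androgen effect minus the LNCaP androgen effect in a fit of all 34 libraries. It was positive for all 44 genes and called for 40, where 10.9% of all genes were called, 5.39% positive, with a median of 2.97. The largest values were CDC20 at 3.82 ± 0.74 (adjusted p = 0.00206) and the survivin gene BIRC5 of the chromosomal passenger complex at 3.80 ± 0.77 (adjusted p = 0.00292). CENPE (1.83 ± 0.78, adjusted p = 0.14), ASPM (2.20 ± 0.83, adjusted p = 0.0921), CENPF (2.55 ± 0.90, adjusted p = 0.0682) and TOP2A (2.20 ± 0.75, adjusted p = 0.0606) were not called. Between 21 and 43 genes were called when 1 library was left out, the fewest without VCaP stripped replicate 1 (21) and LNCaP androgen replicate 1 (22).

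Against control medium on ACP, the androgen groups of LNCaP and VCaP also stood in different places. The androgen-induced genes KLK3 (0.31 ± 0.17, edgeR adjusted p = 0.251) and TMPRSS2 (0.32 ± 0.23, adjusted p = 0.374) were not called in LNCaP there. Both rose in VCaP, KLK3 by 4.535 ± 0.728 (adjusted p = 0.0101) and TMPRSS2 by 1.538 ± 0.348 (adjusted p = 0.033). In LNCaP all 44 genes were lower with androgen than in control medium, where 15.1% of all genes were called, 7.38% lower, with values from -2.55 to -0.96 and a median of -2.02. The largest changes were in CENPA (-2.55 ± 0.39, adjusted p = 0.00292), SGO1 (-2.55 ± 0.38, adjusted p = 0.00236) and HMMR (-2.48 ± 0.52, adjusted p = 0.0101), and the smallest was in KIF4A (-0.96 ± 0.29, adjusted p = 0.0466). HMMR was at 166 and 89.2 CPM in control medium and 11.0 and 35.9 CPM with androgen. PLK1 was at 102 and 67.8 CPM in control medium and 11.6 and 33.4 CPM with androgen (-1.95 ± 0.37, adjusted p = 0.00667). MKI67 (-1.82 ± 0.30, adjusted p = 0.00409), TOP2A (-2.31 ± 0.41, adjusted p = 0.0053) and FOXM1 (-1.91 ± 0.31, adjusted p = 0.00373) were lower as well. The count was 31 to 44 without 1 library.

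In VCaP edgeR and DESeq2 called none of the 44 in that comparison, 2 had an unadjusted p under 0.05, and 5.99% of all genes were called, with a median of -0.10. CCNB1, at 281 and 251 CPM in control medium and 321 and 599 CPM with androgen, had the highest value (0.80 ± 0.38, adjusted p = 0.243). TOP2A, at 752 and 893 CPM and 412 and 448 CPM, had the lowest (-0.92 ± 0.37, adjusted p = 0.167). Neither gene's libraries overlapped between the groups, which is common over all genes with 2 libraries per group. In both lines this comparison shares its androgen libraries with the comparison against stripped serum and its control libraries with the comparisons of surface and of stripping.

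**Figure D4:**
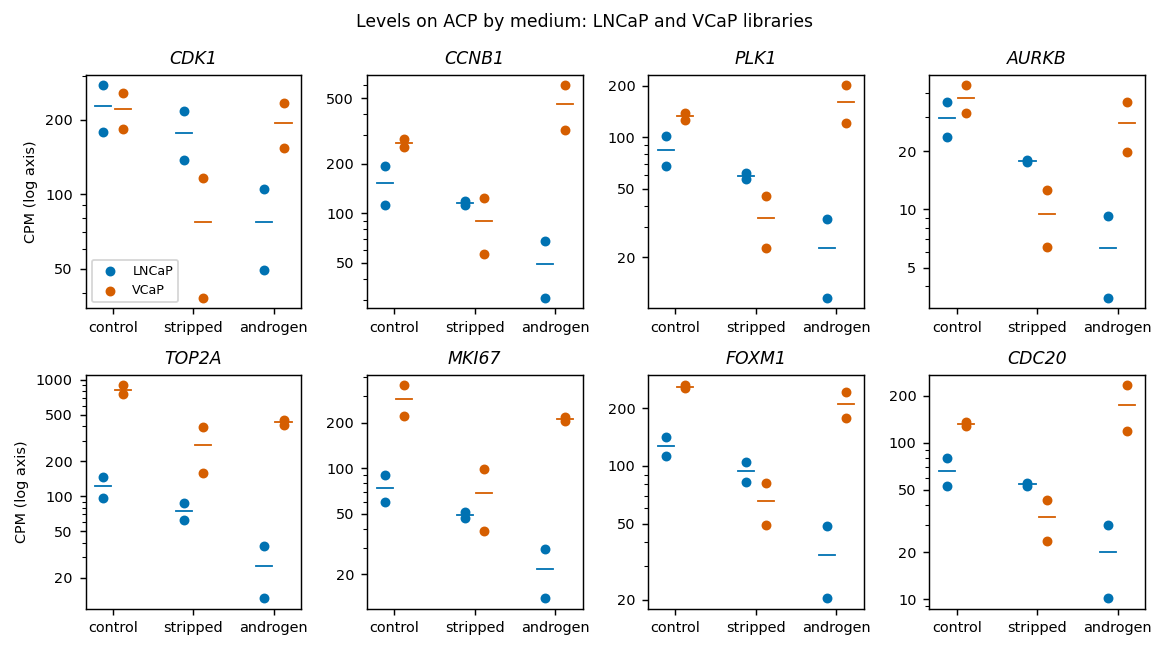
Levels of 8 of the genes in CPM (vertical axes, log scale) on ACP in control medium, stripped serum and stripped serum with androgen. Points are libraries of LNCaP (blue) and VCaP (orange) and short lines are group means. LNCaP androgen libraries are the lowest of that line in each panel, and VCaP stripped libraries are the lowest of that line.

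In MDAPCa2a no gene was called with androgen by edgeR or DESeq2 and none had an unadjusted p under 0.05. Of all genes 0% were called, and 236 of 13626 had an unadjusted p under 0.05. The androgen-induced genes KLK3 (-0.46 ± 0.26, adjusted p = 0.968) and TMPRSS2 (-0.35 ± 0.24, adjusted p = 0.968) were not called either. The 44 values were all positive, with a median of 0.59, and MYBL2 had the highest (0.94 ± 0.83, adjusted p = 0.968). MYBL2 was at 1.84 and 21.5 CPM in stripped serum and 20.6 and 24.4 CPM with androgen, and CDK1 at 14.1 and 26.8 CPM and 31.3 and 22.2 CPM (0.36 ± 0.36, adjusted p = 0.968). Stripped replicate 1 was thus far below the other 3 libraries for MYBL2. The direction rested on that library: the median was -0.09 without it and 2.18 without stripped replicate 2.

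RWPE with androgen on ACP differed from RWPE in control medium on ACP in part of the genes, and in mixed directions. In the androgen medium 10 of the 44 were higher and 1 lower, where 19.1% of all genes were called, 11% higher and 8.05% lower, and the median was 0.10. The control libraries on ACP also serve in the RWPE surface comparison. The higher genes included CDK1, at 72.5 and 98.6 CPM in control medium and 197, 172 and 133 CPM with androgen (0.99 ± 0.22, adjusted p = 0.0205), and CCNB1, at 425 and 422 CPM and 875, 714 and 503 CPM (0.74 ± 0.23, adjusted p = 0.0495). MAD2L1 was at 113 and 115 CPM and 310, 267 and 180 CPM (1.17 ± 0.24, adjusted p = 0.0172). NUF2, a subunit of the kinetochore complex that binds microtubules, had the largest change (1.28 ± 0.30, adjusted p = 0.0221), at 39.6 and 44.4 CPM and 121, 123 and 57.1 CPM. HMMR rose by 1.03 ± 0.28 (adjusted p = 0.0311) and KIF18A by 0.66 ± 0.17 (adjusted p = 0.025). The other called genes, named after their values were seen, were CCNA2 (0.62), TTK (0.71), SGO1 (0.81) and SPC25 (0.83), which rose, and KIF20A (-0.59), which fell.

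FOXM1, MKI67 and PLK1 had negative fold changes that were not called with all 3 androgen libraries. FOXM1 was at 120 and 118 CPM in control medium and 57.1, 70.0 and 111 CPM with androgen (-0.57 ± 0.24, adjusted p = 0.111), MKI67 at 354 and 434 CPM and 158, 174 and 426 CPM (-0.63 ± 0.36, adjusted p = 0.222), and PLK1 at 195 and 171 CPM and 122, 132 and 136 CPM (-0.47 ± 0.16, adjusted p = 0.0574). Replicate 3 of the androgen group was outside the range of the other two libraries for 35 of the 44 genes, above it for 16 and below it for 19. It lay nearer to control medium for MKI67, FOXM1 and NUF2. Without it 27 genes were called, 15 higher and 12 lower, and the lower ones included MKI67 (-1.22, adjusted p = 0.000289), FOXM1 (-0.87, adjusted p = 0.000702) and PLK1 (-0.49, adjusted p = 0.011). DESeq2 with all libraries called PLK1 (adjusted p = 0.0143) but neither MKI67 (0.156) nor FOXM1 (0.0782). The number called was 2 without replicate 1, 6 without replicate 2, and 0 without either control library. The 9 line identity markers, mostly the basal keratins KRT5 and KRT14, summed to 3890 to 11700 CPM in the androgen libraries and 13200 to 16500 CPM in control medium, and their part in the result was not tested. KLK3 and TMPRSS2 were not called in RWPE.

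**Figure D5:**
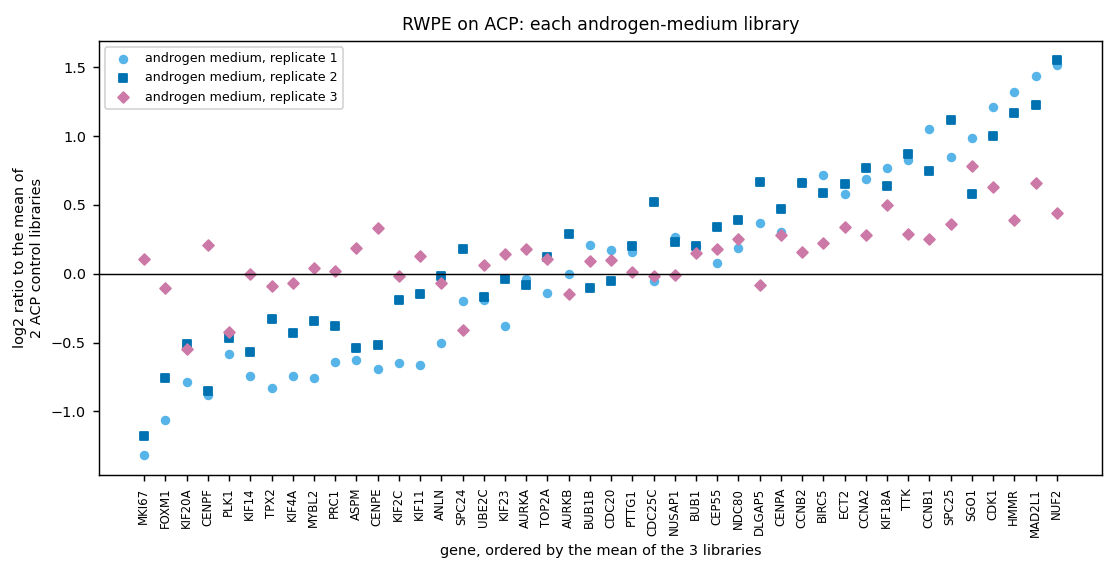
RWPE on ACP: log2 ratio (vertical axis) of each androgen-medium library to the mean of the 2 control-medium libraries, for each of the 44 genes (horizontal axis, ordered by the mean of the 3 libraries). Replicates 1 and 2 spread from below -1 for MKI67 to above 1 for NUF2, and replicate 3 lies closer to 0 for both.

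Lists of other cell cycle genes were counted in the same tests, in which 3.96% of all genes fell in LNCaP and 8.67% rose in VCaP. Of 42 other mitotic genes, 1 rose and 18 fell with androgen in LNCaP, and 34 rose and none fell in VCaP. The 1 that rose in LNCaP was CENPN, which binds the centromere histone, from a mean of 361 CPM to 941 CPM (1.38 ± 0.18, adjusted p = 0.0015); it also rose in VCaP (2.10 ± 0.30, adjusted p = 0.0029). Of 25 replication and S phase genes, 17 fell in LNCaP and 16 rose in VCaP. Of 9 regulators of mitotic entry, 3 fell in LNCaP and 7 rose in VCaP. Of 12 E2F and MuvB regulators, 3 fell in LNCaP and 3 rose in VCaP. The 15 subunits and regulators of the anaphase-promoting complex had medians of 0.02 in LNCaP, with none called, and 0.19 in VCaP, with 2 higher and 1 lower. Of the 42 other mitotic genes, 37 differed positively between VCaP and LNCaP and none negatively, where 5.39% of all genes differed positively.

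The summed level of the 44 genes relative to that of the 25 replication genes also differed between libraries. This ratio was 2.27 to 2.88 in RWPE, 0.617 to 1.23 in LNCaP, 1.17 to 2.25 in VCaP and 0.495 to 1.51 in MDAPCa2a. The libraries of a group differed: the ratio was 0.617 and 0.972 in LNCaP with androgen and 0.926 and 1.15 in LNCaP in stripped serum on ACP, so that these groups overlapped. In stripped serum on ACP it was 1.17 and 2.06 in VCaP, where the control libraries lay between 1.53 and 1.87, and 0.495 and 1.12 in MDAPCa2a. In RWPE the plastic control libraries were lowest, at 2.28 and 2.27.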

How the data were processed

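Poly(A) RNA of cultured cell lines was sequenced, per the labels' protocols. The submitters' processing notes name STAR, HTSeq and the genome build hg19, with no versions; the strand setting and annotation were not stated in any label or header read here. The authors deposited 1 table of raw read counts per gene for 34 libraries, with totals of 15440141 to 44779246, and 0 columns went unused. The counts were fitted with edgeR 4.0.16 (limma 3.58.1, R 4.3.3), with trimmed mean of M-values scaling, a minimum count of 10 in its expression filter, and quasi-likelihood tests within each line (13626 to 15614 genes tested). Lines were compared in 1 fit over the 34 libraries (17323 genes). Benjamini-Hochberg adjusted p-values over all genes tested were called below 0.05. The fits were first run on simulated counts with known changes in 200 genes. A log2 change of 1 was recovered in 54% to 70.5% of them in the LNCaP and RWPE comparisons tried. It was recovered in 34.5% for MDAPCa2a androgen, 3% for VCaP androgen, 1% for VCaP minus LNCaP and 0% for the VCaP surface in stripped serum. A log2 change of 2 was recovered in 75% to 98.5%. A gene not called in VCaP or MDAPCa2a is thus not shown to be unchanged. The errors given hold both counting error and the spread between libraries.

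The 44 genes and all lists were chosen with earlier results of these data known. Genes given with statistics were, in each role group, those with the largest and, in groups of 5 or more, the smallest fold change, with CDK1, CCNB1, PLK1, AURKB, TOP2A, MKI67 and FOXM1 shown by library. Alternatives were other size factors, no expression filter, DESeq2 1.42.0, a replicate block, the fit of all lines and leaving out each library. Promoter windows and per-kilobase lengths came from GRCh38 references and were used with gene names only, since the table has no coordinates. Python 3.11.15, pandas 2.3.3 and numpy 2.4.6 were used for these.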

Additional observations from a re-analysis of the deposited data

Results flagged for a closer look

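The androgen effect on ACP differed between VCaP and LNCaP by a direct test of the difference (edgeR, fit of all 34 libraries). It called 40 of the 44 genes, all positive, where 5.39% of all genes were called positive. The log2 differences, VCaP minus LNCaP, were 3.82 for CDC20, 3.80 for BIRC5, 3.72 for CENPA, 3.68 for SGO1, 3.65 for PLK1, 3.62 for CEP55 and 3.57 for CCNB1. They were 3.46 for KIF20A, 3.35 for MYBL2, 3.30 for HMMR, 3.12 for FOXM1, 3.02 for AURKB, 2.81 for MKI67 and 2.51 for CDK1. In each of these genes both LNCaP androgen libraries were below both LNCaP stripped libraries, and both VCaP androgen libraries were above both VCaP stripped libraries. Over all genes tested, the groups did not overlap, lower with androgen, for 28.7% in LNCaP, and higher with androgen for 29.9% in VCaP.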

How the results depend on the processing

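The members called changed with the setting in several comparisons, and the causes were not tested. Shares over all genes are given for the main fits only, so the counts below cannot be set against a share of their own setting. With the fit of all lines 0 were called for the RWPE and LNCaP surface in control medium, 20 and 26 for VCaP stripping on plastic and ACP, 3 for LNCaP androgen and 0 for the RWPE androgen medium. With no filter on low counts the numbers were 10 and 26 for the RWPE and LNCaP surface in control medium, 2 and 2 for the LNCaP and MDAPCa2a surface in stripped serum, 1 and 43 for LNCaP and VCaP stripping on plastic, 21 and 44 for LNCaP and VCaP stripping on ACP, 44 for LNCaP androgen, 1 for VCaP androgen against control medium and 2 for the LNCaP surface by serum difference. DESeq2 called 14 and 7 for the RWPE and LNCaP surface, 43 and 42 for VCaP stripping on plastic and ACP, and 2 for LNCaP stripping on ACP. DESeq2's size factors in edgeR gave 0 for VCaP stripping on plastic. Same-numbered libraries correlated between -0.34 and 0.42 over 25 pairs of groups, above 0.1 in 6. These values do not settle whether libraries of the same number were paired. With the replicate block the counts were 23 and 4 for the RWPE and LNCaP surface, and 0 and 38 for VCaP stripping on plastic and ACP. The RWPE androgen medium gave 27 with the block, 15 higher and 12 lower. There androgen replicate 3 has no partner, and MKI67, FOXM1 and PLK1 were called lower, as without that library. In the other comparisons the counts with the block stayed within 1.5 times.

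Leaving out 1 library gave 11 to 17, 4 to 8 and 19 to 37 calls for LNCaP, VCaP and MDAPCa2a against RWPE, 0 to 1 and 0 to 10 for the RWPE and LNCaP surface, 0 to 12 for the MDAPCa2a surface, 1 to 4 and 0 to 40 for VCaP stripping on plastic and ACP, 0 to 1 for LNCaP stripping on ACP, 1 to 44 and 5 to 43 for LNCaP and VCaP androgen, 0 to 27 for the RWPE androgen medium, 31 to 44 for LNCaP androgen against control medium and 21 to 43 for VCaP minus LNCaP. Where a group kept 1 library, it was assumed to vary like the others. Without MDAPCa2a plastic control replicate 1, CDK1 against RWPE was 0.0221, and without replicate 2 it was -0.932. Without MDAPCa2a ACP stripped replicate 1 the androgen values were -0.086 for the median, 0.004 for KLK3 and 0.0115 for TMPRSS2, and without replicate 2 they were 2.18, -0.805 and -0.632.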
